A study of Mus musculus with 13 samples.

Results

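Of 2505 DNA barcodes counted in transplanted mouse leukaemias, 12 made up at least 1% of the leukaemia in hosts of both strains tested, immunocompetent and immunodeficient. The 12 were chosen by their measured abundance. For each mouse the CPM of its bone marrow and spleen library were averaged (CPM, barcode reads scaled to 1000000 per library, so that 10000 CPM is 1% of a library), and a barcode was taken when this mean reached 10000 CPM in at least 1 of 3 Ptprca mice and at least 1 of 3 NSG mice. Levels in the mice, and any difference between the strains, are therefore given as a description with no test. The starting abundance was not used in the choice. Nor was the difference between the organs of a mouse, but the choice used their mean, so this difference is not independent of it. On spleen alone 5 of the 12 would not have qualified, and on bone marrow alone 1.

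The oncogene is MLL-AF9, a gene fusion found in acute myeloid leukaemia that gives progenitor cells lasting self-renewal. Progenitors positive for c-Kit, a surface receptor of immature blood cells, received a SPLINTR barcode by viral transduction, so that all descendants of a labelled cell carry the same tag in their genome. All recipients received leukaemia cells of this kind. Ptprca mice are C57BL/6 congenics with working adaptive immunity, and NSG mice lack T, B and natural killer cells. Age and sex of the mice are not stated in the labels, which name no treatment after transplantation. Each mouse (1, 2 and 3 Ptprca; 4, 5 and 6 NSG) gave 1 bone marrow and 1 spleen library of sorted viable cells when diseased. The starting progenitors are represented by a single baseline library. In such experiments a barcode found in separate animals marks a founder whose descendants were present in the cells each of them received.

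Reads per library, summed over 2 technical repeats whose mean CPM the table holds, ran from 2484519 to 5252942, and 3 reads in the shallower repeat, used as a floor, corresponded to 0.575 to 8.80 CPM. Reads from PCR without molecular identifiers are not independent molecules, so floors and intervals describe counting error alone. A share is relative: a smaller clone and larger neighbours cannot be told apart. This matters most in NSG mice, where a barcode outside the 12, GFP_Barcode_52804, took 17.9% to 23.4% of bone marrow and 23.7% to 70.7% of spleen.

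Together the 12 barcodes went from 3.12% of the baseline library to between 7.81% and 68.6% of the disease libraries. They made up 29.3%, 29.3% and 28.5% of the bone marrow of Ptprca mice 1, 2 and 3, and 31.0%, 40.2% and 43.3% of that of NSG mice 4, 5 and 6. In spleen they held 35.1%, 38.2% and 68.6% in Ptprca mice 1, 2 and 3. The NSG spleens held 7.81%, 38.2% and 29.5%. The group means were 29.1% ± 0.489 in Ptprca and 38.1% ± 6.41 in NSG bone marrow, and 47.3% ± 18.5 and 25.2% ± 15.7 in spleen (SD, n = 3 each). The summed share thus varied little between Ptprca bone marrows and most between spleens. When reads of GFP_Barcode_52804 were set aside, the means in NSG mice were 47.5% ± 6.35 of bone marrow and 46.1% ± 17.8 of spleen. On the same scale Ptprca spleens stood at 47.5% ± 18.6, so that the spleen means of the strains were within 1 SD of each other. This scale moves the NSG shares almost alone, since GFP_Barcode_52804 held 0.184% to 0.361% of the Ptprca libraries. No leading barcode of a Ptprca mouse was set aside. Bone marrow stayed apart on that scale, at 29.1% ± 0.491 in Ptprca mice (28.6% to 29.4%) and 40.4% to 52.7% in NSG mice.

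Each mouse had between 7 and 10 of the 12 at 1% or more, out of 11 to 24 barcodes at that level. Over the 72 combinations of barcode and mouse, 51 reached 1%, 25 of 36 in Ptprca and 26 of 36 in NSG mice. In Ptprca mice 2 and 3 the leading barcode of the animal was among the 12, GFP_Barcode_117983 at 9.81% and 18.6%. In Ptprca mouse 1 the leader was GFP_Barcode_113284 (14.6%), and in all NSG mice it was GFP_Barcode_52804. Recurrence was graded: 3 of the 12 reached 1% in all 6 mice, 2 in 5 mice, 4 in 4 mice, 1 in 3 mice and 2 in 2 mice, the fewest the rule allows.

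GFP_Barcode_69276 was the most even of the barcodes that reached 1% in every mouse. It held 2.73%, 7.29% and 8.07% of the bone marrow of Ptprca mice 1, 2 and 3 and 4.28%, 6.45% and 6.39% of that of NSG mice 4, 5 and 6. In spleen it held 1.63%, 3.86% and 4.67% in Ptprca and 4.88%, 0.774% and 2.54% in NSG mice, from 0.250% at baseline. The strains overlapped in both organs. Over the mice, its mean of both organs spanned 2.18% to 6.37%, a 2.92-fold range, the smallest among the 12, and its rank ran from 2 to 13.

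GFP_Barcode_98919 reached 1% in all 6 mice too, with organ patterns that looked different in each strain. Its bone marrow shares were 1.17%, 4.28% and 2.76% in Ptprca mice 1, 2 and 3 and 4.78%, 2.45% and 4.58% in NSG mice 4, 5 and 6, which overlapped. In spleen it held 10.2%, 3.56% and 15.4% in Ptprca mice but 0.764%, 0.687% and 1.65% in NSG mice, which did not overlap. The baseline share was 0.0874%, and every disease library was above it. With GFP_Barcode_52804 set aside, the NSG spleens stood at 2.61%, 0.901% and 3.44%, the highest of them just under the lowest Ptprca spleen.

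GFP_Barcode_22403 completed this trio. Ptprca bone marrows held 4.01%, 2.35% and 2.45% and NSG bone marrows 4.34%, 4.15% and 12.9% (mice in number order), so that every NSG mouse was above every Ptprca mouse, by a narrow margin. In spleen it was at 1.72%, 0.678% and 2.54% in Ptprca and 0.0726%, 4.43% and 1.11% in NSG mice, which overlapped widely. The spleen of NSG mouse 4 was the only disease library below the baseline share of 0.154%. GFP_Barcode_52804 held 70.7% of that spleen, and with it set aside the share was 0.247%, above the baseline share of 0.154% on that scale.

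Both barcodes at 1% in 5 mice were led by a single NSG animal. GFP_Barcode_52357, at 0.0495% at baseline, held 5.94%, 0.658% and 1.32% of Ptprca and 2.14%, 1.75% and 3.20% of NSG bone marrow. Its spleen shares were 1.78%, 0.481% and 1.13% in Ptprca mice and 1.42%, 1.11% and 15.6% in NSG mice. Apart from the spleen of NSG mouse 6, all its libraries were under 6%, and the strains overlapped in both organs.

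GFP_Barcode_18532 was the most abundant of the 12 at baseline (1.01%). It held 2.63%, 2.82% and 1.20% of Ptprca bone marrow and 0.715%, 0.884% and 0.685% of Ptprca spleen, the last group below the baseline share throughout. NSG bone marrow was higher in each animal, at 4.13%, 15.8% and 2.83%, the lowest of which barely passed the highest Ptprca value. NSG spleens held 0.255%, 18.4% and 0.773%. In NSG mouse 5 both organs were high and gave a mean of 17.1%, against 2.19% and 1.80% in NSG mice 4 and 6.

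Among the 4 barcodes at 1% in 4 mice, GFP_Barcode_117983 had the largest shares and the steepest contrast between organs. It made up 12.4%, 18.7% and 36.7% of Ptprca spleens, and only 0.225%, 0.915% and 0.509% of the bone marrow of the same mice. NSG bone marrow held 0.241%, 0.353% and 0.0376%. NSG spleens were at 0.0000799%, 5.89% and 0.251%, the first being 0.799 CPM, 2 reads in 1 repeat and 0 in the other, under the floor of 1.20 CPM. Neither strain had this barcode at 1% in any bone marrow, and it qualified in NSG mice through the spleen of mouse 5. It was also the rarest of the 12 at baseline, at 0.00557% (55.7 CPM).

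GFP_Barcode_39453 was likewise higher on the Ptprca side. It held 2.04%, 1.12% and 7.47% of Ptprca and 1.19%, 0.869% and 0.845% of NSG bone marrow, which overlapped through Ptprca mouse 2 and NSG mouse 4 only. In spleen the shares were 4.08%, 4.49% and 5.89% in Ptprca mice and 0.0244%, 0.473% and 1.75% in NSG mice, which did not overlap. With GFP_Barcode_52804 set aside, the NSG spleens were at 0.0832%, 0.620% and 3.65%, below all Ptprca spleens on that scale too.

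GFP_Barcode_3138 was present at 1% in 2 mice of each strain. Bone marrow shares were 2.21%, 5.62% and 0.307% in Ptprca and 0.729%, 2.33% and 4.06% in NSG mice. Spleens held 1.29%, 1.34% and 0.261% in Ptprca and 0.137%, 0.485% and 0.167% in NSG mice. In every animal the spleen had less of it than the bone marrow, and the strains overlapped in both organs. Ptprca mouse 3 (mean 0.284%) and NSG mouse 4 (mean 0.433%) were lowest. The baseline share was 0.414%.

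GFP_Barcode_27920 reached 1% in all 3 NSG mice but only in mouse 3 of the Ptprca group. NSG bone marrow held 2.30%, 2.18% and 3.59%, and Ptprca bone marrow 0.00230%, 0.395% and 2.61%. In spleen it was at 0.0850%, 1.11% and 1.30% in NSG and 0.00614%, 0.0713% and 0.356% in Ptprca mice. Its mean in Ptprca mouse 1, 0.00422%, was 579-fold below that in NSG mouse 6, the widest span of the 12. At baseline this barcode held 0.853% and ranked 16, so that Ptprca mice 1 and 2 ended below the starting share.

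GFP_Barcode_44771, the only barcode at 1% in 3 mice, was also nearly missing from Ptprca mouse 1. Its bone marrow shares were 0.00444%, 1.59% and 0.895% in Ptprca and 4.93%, 1.10% and 0.808% in NSG mice. Spleens held 0.0115%, 3.93% and 0.220% in Ptprca and 0.0403%, 4.32% and 0.462% in NSG mice. The low values of Ptprca mouse 1 were well measured, with 143 and 90 reads in the repeats of its bone marrow and 291 in each repeat of its spleen. Every mouse other than Ptprca mouse 1 was above the baseline share of 0.0357%.

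GFP_Barcode_14093 reached 1% in Ptprca mouse 1 and NSG mouse 6 only. It held 2.44%, 1.64% and 0.332% of Ptprca and 1.74%, 0.684% and 2.25% of NSG bone marrow. In spleen it was at 0.721%, 0.128% and 0.490% in Ptprca and 0.0831%, 0.490% and 3.78% in NSG mice. All 12 disease libraries were above its baseline share of 0.0608%, and the strains overlapped in both organs.

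GFP_Barcode_618, the last of the 12, reached 1% in Ptprca mouse 1 and NSG mouse 5. The bone marrows held 5.92%, 0.676% and 0.571% in Ptprca and 0.156%, 2.06% and 1.74% in NSG mice. Spleen shares were lower in every animal, at 0.590%, 0.107% and 0.225% in Ptprca and 0.0546%, 0.0878% and 0.127% in NSG mice. At baseline it held 0.119%, a share that the spleens of Ptprca mouse 2 and of NSG mice 4 and 5 did not reach. With GFP_Barcode_52804 set aside, the NSG spleens were at 0.186%, 0.115% and 0.264%.

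At the 1% limit the set had no sharp edge. By the lower of its strain maxima, GFP_Barcode_618 was just inside at 1.08%, preceded by GFP_Barcode_39453 (1.30%) and GFP_Barcode_27920 (1.48%). Just outside were GFP_Barcode_22108 at 0.982%, GFP_Barcode_72631 at 0.804% and GFP_Barcode_61176 at 0.758%. A limit of 5000 CPM would have admitted 24 barcodes and one of 20000 CPM 7. On bone marrow alone, 11 of the 12 qualified beside 5 others, and GFP_Barcode_117983 was the one lost. On spleen alone, 7 of the 12 qualified and no other barcode did. With GFP_Barcode_52804 set aside, 16 qualified: the 12, GFP_Barcode_72631 and GFP_Barcode_61176, and GFP_Barcode_154004 and GFP_Barcode_19525. Of the 12, 6 reached 1% in at least 2 mice of each strain.

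Set against each other by strain, 2 of the 12 had bone marrow shares that did not overlap (GFP_Barcode_22403 and GFP_Barcode_18532, both higher in NSG mice), where 18.2% of 373 barcodes with enough signal did so. In spleen 3 did not overlap (GFP_Barcode_117983, GFP_Barcode_98919 and GFP_Barcode_39453, all lower in NSG mice), against 15.3% of the 373. By the mean of both organs the same 3 were apart, against 20.9%. For these 3 the Ptprca means over both organs were 11.6% ± 6.32, 6.24% ± 2.64 and 4.18% ± 2.17, and the NSG means 1.13% ± 1.73, 2.49% ± 0.812 and 0.860% ± 0.382 (SD, n = 3 each). With GFP_Barcode_52804 set aside, the same 3 remained apart in spleen (14.2% of the 372 tested barcodes that remain did not overlap), and GFP_Barcode_27920 joined the 2 in bone marrow (18% of the 372). The rule used these levels, so nothing is read from the counts.

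Spleen was then compared with bone marrow. The choice of barcodes used the mean of these values and not their difference, but a high value in 1 organ could admit a barcode. It did so for the 5 of the 12 that did not qualify on spleen alone, and for GFP_Barcode_117983, which did not on bone marrow alone. For these the direction of the difference is tied to the choice. GFP_Barcode_618 and GFP_Barcode_3138 were lower in spleen in 6 of 6 mice, 2 of 12 barcodes (16.7%) against 5.9% of the 373, and 11.8% of the 119 barcodes that averaged 1000 CPM or more. Neither would have been chosen on spleen alone, so their choice through bone marrow favoured this direction and nothing is read from the count. None of the 12, and 0% of the 373, were higher in spleen in 6 of 6 mice. On the log2(CPM + 1) scale, which understates differences of rare barcodes, spleen minus bone marrow was -2.86 for GFP_Barcode_618 (SE 0.89), -2.06 for GFP_Barcode_3138 (SE 0.80) and -2.05 for GFP_Barcode_22403 (SE 0.79), each with a limma adjusted p of 0.306. GFP_Barcode_117983 was the only 1 of the 12 with a positive mean difference, 2.12 (SE 1.69, limma adjusted p = 0.720). It was higher in spleen in 5 of 6 mice, by up to 72.0-fold in Ptprca mouse 3, and lower in NSG mouse 4, whose spleen value was under the floor. The mean difference was 4.42 without NSG mouse 4, 0.81 without NSG mouse 5 and 1.14 without NSG mouse 6.

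None of the 12 passed limma with Benjamini-Hochberg adjustment at 0.05, nor did any of the 373 tested (0%). This main fit took the libraries as independent and left out the pairing of organs by mouse. An unadjusted p under 0.05 was found for 4 of the 12 and for 34 of the 373. The median difference was -1.30 over the 12 and -1.37 over all tested. Mouse by mouse, 9 and 8 of the 12 were lower in spleen in Ptprca mice 2 and 3, where 49.1% and 44.8% of the 373 were. In NSG mice 4, 5 and 6 the counts were 11, 8 and 8 of the 12, against 61.9%, 61.4% and 57.4%, and in Ptprca mouse 1 they were 7 of the 12 against 55.8%. A barcode absent from both organs of a mouse has a difference of 0 and counted as not lower. The median over the 373 was 0 in Ptprca mice 2 and 3. All 12 members were above 0 in every library, so these percentages are not a matched background. The same holds for the percentages over 6 of 6 mice. With the mouse as a random effect, which uses that both organs come from 1 animal, GFP_Barcode_618 and GFP_Barcode_3138 passed (limma adjusted p = 0.0461 and 0.0491), among 4.83% of the 373. Both had been chosen through bone marrow, so these values are not independent of the choice. That fit assumes 1 correlation between organs, estimated at 0.481, whereas the deviations of the organs of a mouse from their group means had correlations of 0.773 to 0.796 (Ptprca) and 0.208 to 0.254 (NSG). With the mouse number as a replicate block, a fixed effect for each mouse that also uses the pairing, neither passed (limma adjusted p = 0.151 each). Centring each library on the mean log value of all tested barcodes adds 1.42 to every difference, so the signs hold for shares of the library and not relative to the average barcode. On the centred scale GFP_Barcode_618 was at -1.44 and GFP_Barcode_3138 at -0.63, and the 5 members with smaller differences (GFP_Barcode_69276, GFP_Barcode_52357, GFP_Barcode_98919, GFP_Barcode_44771 and GFP_Barcode_39453) were above 0.

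Within Ptprca mice GFP_Barcode_117983 differed by 5.44 (SE 2.38) and GFP_Barcode_98919 by 1.78 (SE 0.74), both more abundant in spleen, each with a limma adjusted p of 1. No barcode of the 373 (0%) passed there, and 8 had an unadjusted p under 0.05, 2 of them among the 12. Within NSG mice the lowest values were -3.28 for GFP_Barcode_618 (SE 1.26, limma adjusted p = 0.267), -3.12 for GFP_Barcode_22403 (SE 1.12, limma adjusted p = 0.212) and -3.09 for GFP_Barcode_3138 (SE 1.13, limma adjusted p = 0.229). None of the 12 passed, against 0.268% of the 373, and 11 of the 12 had a negative difference. The median in NSG mice was -1.91 over the 12 and -1.66 over the 373. As a random effect, the mouse brought these 3 under the threshold (limma adjusted p = 0.0356, 0.0345 and 0.0255), among 7.24% of the 373. For GFP_Barcode_618 and GFP_Barcode_3138, which did not qualify on spleen alone, the choice itself favoured a lower spleen value. With the mouse number as a replicate block none of the 3 passed (limma adjusted p = 0.0905, 0.126 and 0.0772).

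The strain by organ interaction, the NSG difference minus the Ptprca difference, had its lowest p among the 12 for GFP_Barcode_98919, at -3.77 (SE 1.04). This barcode was higher in spleen than in bone marrow in 2 of 3 Ptprca mice and lower in 3 of 3 NSG mice. Its limma adjusted p was 0.382, and none of the 12 or of the 373 (0%) passed, with 1 of the 12 and 15 of the 373 at an unadjusted p under 0.05. As a random effect, the mouse gave an adjusted p of 0.0370 by limma for this barcode, among 1.07% of the 373. With the mouse as a replicate block the limma adjusted p was 0.229. GFP_Barcode_117983 had the larger interaction, -6.63, with an SE of 3.37 and a limma adjusted p of 0.997. Its NSG spleens ranged from under the floor to 5.89%.

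At baseline the 12 founders were spread over a wide range of abundance. Their CPM ran from 55.7 to 10077, with a median of 1033, and their ranks from 14 to 1163 among the 2394 barcodes seen there. The median was 357 CPM over the 373 tested barcodes and 50.2 CPM over the 2394. Barcodes that reached 1% only in Ptprca mice (27) had a median of 423 CPM, and those that reached it only in NSG mice (11) a median of 560 CPM. Of the 12, 6 were at 1000 CPM or more, as were 6 of the 27, 5 of the 11, 89 of the 373 tested (23.9%) and 184 of the 2394. No test was made on 1 baseline library.

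Relative to that start, 7 of the 12 were above their baseline share in all 6 mice by the mean of both organs, against 6.17% of the 373, and 121 of the 144 disease values were above it, against 28.8% over the 373. Members were chosen for high disease levels, so nothing is read from these counts. GFP_Barcode_117983 had the highest mean over the 12 disease libraries, 1140-fold its baseline share, but 645-fold without the spleen of Ptprca mouse 3. Its median over the 12 libraries was 77.4-fold, and the spleen of NSG mouse 4 was below baseline. The other folds of the mean, in falling order, were 61.5 for GFP_Barcode_52357, 49.9 for GFP_Barcode_98919, 42.7 for GFP_Barcode_44771, 31.2 for GFP_Barcode_39453, 22.1 for GFP_Barcode_22403, 20.2 for GFP_Barcode_14093 and 17.9 for GFP_Barcode_69276. GFP_Barcode_618, GFP_Barcode_18532, GFP_Barcode_3138 and GFP_Barcode_27920 followed at 8.62, 4.22, 3.82 and 1.37. Single libraries weighed on this order: the fold of GFP_Barcode_52357 was 38.4 without the spleen of NSG mouse 6, and that of GFP_Barcode_618 was 4.88 without the bone marrow of Ptprca mouse 1. The fold of GFP_Barcode_18532 was 2.95 without the spleen of NSG mouse 5. These folds divide levels that the rule required by the baseline share, so a high baseline share and a small fold go together by construction. The 3 barcodes at 1% in every mouse began at 0.0874% to 0.250%. By the mean of both organs, GFP_Barcode_27920 was below its baseline share in Ptprca mice 1 and 2. It was at 1.74-fold that share in Ptprca mouse 3 and at 1.40-fold to 2.86-fold in the NSG mice. By library, 6 of the 12 were above it and the median was 0.880-fold. The spleens of Ptprca mouse 3 and NSG mouse 4 were at 0.417-fold and 0.0996-fold.

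Baseline shares were precise for counting error. The 95% Wilson interval, approximate for a mean of repeats, was 0.246% to 0.254% for GFP_Barcode_69276, 0.00494% to 0.00625% for GFP_Barcode_117983 and 0.845% to 0.861% for GFP_Barcode_27920. Repeats differed by more than this. In the 11 baseline values for which the reads of each repeat could be recovered, the higher repeat exceeded the lower by a median of 1.15-fold and at most 1.52-fold.

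Recovery was not tried for the 86 values of the 12 barcodes at 1% or more, so the agreement of their repeats is not known. Under 1%, it was possible for 69 values. In the 37 from libraries other than NSG spleens and baseline, the repeats differed by a median of 1.09-fold and at most 1.33-fold. Of the 21 from NSG spleens, 1 was seen in 1 repeat only, and the other 20 had a median of 1.17-fold, with 5 over 2-fold. GFP_Barcode_618 was the most affected, with 2.24-fold, 3.78-fold and 2.04-fold between repeats in the spleens of NSG mice 4, 5 and 6. Its spleen share in mouse 5 was the mean of 1389 and 367 CPM, and both are far below the 2.06% of its bone marrow. In the spleen of NSG mouse 4 the repeats also differed by 2.44-fold for GFP_Barcode_14093 (483 and 1179 CPM) and by 2.22-fold for GFP_Barcode_39453 (152 and 336 CPM). The low shares in that spleen were better matched for GFP_Barcode_22403 (762 and 689 CPM) and GFP_Barcode_44771 (415 and 390 CPM).

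A feature that the rule did not use was the presence of a companion, a barcode that kept a near-constant ratio to a member. For each of the 12, the barcode with the smallest SD of the log2 ratio was sought over libraries where both were above the floor, and an SD of 0.5 or less counted. It was met by 2 of the 12, against 5.3% of the 302 barcodes that could be assessed. This count is a description over libraries that share mice and a starting pool. All 12 members were above 0 in every library, whereas 6 shared libraries were enough for a barcode to be assessed. The 5.3% is therefore not a matched background.

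GFP_Barcode_69276 was accompanied by GFP_Barcode_7083 in all 13 libraries, with an SD of 0.18. The companion stood at 11.7%, 12.4% and 14.1% of the level of GFP_Barcode_69276 in Ptprca bone marrow and at 12.1%, 11.6% and 11.0% in Ptprca spleen. NSG bone marrows had ratios of 11.7%, 12.5% and 13.9%, and NSG spleens 12.6%, 17.5% and 13.4%. At baseline it was 11.0%. The ratio thus held from the progenitors to the leukaemias of both strains, and only the spleen of NSG mouse 5 departed from the range of 11.0% to 14.1%. The next closest barcode to GFP_Barcode_69276 had an SD of 1.35.

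GFP_Barcode_618 had such a companion in GFP_Barcode_117016, with an SD of 0.27 over 13 libraries. The companion was at 16.6%, 16.8% and 16.7% of its level in Ptprca bone marrow, 17.8%, 17.3% and 16.9% in Ptprca spleen and 13.4%, 16.3% and 17.6% in NSG bone marrow. In NSG spleens it was at 17.3%, 31.2% and 17.6%, and at baseline at 15.8%. The outlying value was again the spleen of NSG mouse 5, where the repeats of GFP_Barcode_618 differed by 3.78-fold. Without that library the ratio stayed between 13.4% and 17.8%, with an SD of 0.11. The share of GFP_Barcode_618 itself spanned 0.0546% to 5.92% over the same disease libraries.

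The other 10 had no barcode this close. Their smallest SD ran from 0.87, for GFP_Barcode_18532 with GFP_Barcode_15798, to 2.63, for GFP_Barcode_117983. For some of them the closest barcode was itself 1 of the 12. It was GFP_Barcode_69276 for GFP_Barcode_98919 (SD 1.41), GFP_Barcode_52357 for GFP_Barcode_14093 (SD 1.29) and GFP_Barcode_98919 for GFP_Barcode_39453 (SD 1.67).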

How the data were processed

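The authors deposited 1 table of CPM values, barcode reads scaled to 1000000, with a column per library. Per the labels' protocols, each lysate was divided into technical replicates before 2 rounds of PCR. Bowtie 1.2.2 and R 3.6 appear in the submitters' processing notes, with settings not given in the sources used here. All 2795 values under 60 CPM were sums of multiples of 2 steps (tolerance 1e-06 CPM), which gave the reads of both repeats; no count model was fitted, since reads were averaged. Sample titles gave the groups.

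The fit covered 373 barcodes, those reaching 10 CPM in 3 or more of the 12 disease libraries, and all 12 members were among them. It used log2(CPM + 1), 4 group means, a variance trend (limma 3.58.1, R 4.3.3) and adjustment over the 373. On simulated data for spleen minus bone marrow over both strains (373 barcodes) 1, 2 and 6 of 20 barcodes were found at true log2 changes of 2, 4 and 6, with 1 false call. The simulation drew libraries independently, with no effect shared by the organs of a mouse, and changed barcodes taken at random from the 373. It therefore describes the main fit alone, and not the 12 in particular. Both organs of a mouse number come from 1 animal, which pairs the libraries, and the main fit leaves this pairing out. Tables were made with Python 3.11.15, pandas 2.3.3 and scipy 1.17.1. Members, lists and tests were chosen with earlier results of these data known. All members are named, with each member's closest companion where its SD was 0.5 or less and the 3 barcodes on either side of the limit. Alternatives covered pseudocounts, filters, trend, scaling, mouse as block or random effect, each mouse left out, and the membership rule; the fits of each strain alone and the folds over baseline without the highest library were added after seeing the data.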

Additional observations from a re-analysis of the deposited data

How the results depend on the processing

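For the organ difference over both strains, 8 of the 12 barcodes kept their direction under every alternative other than centring, which adds 1.42 to each of them. Centred log-ratios gave 0.31 for GFP_Barcode_69276, 1.20 for GFP_Barcode_52357, 1.32 for GFP_Barcode_98919, 0.57 for GFP_Barcode_44771 and 0.96 for GFP_Barcode_39453, and rescaling without GFP_Barcode_52804 gave 0.15 for GFP_Barcode_52357 and 0.27 for GFP_Barcode_98919. With each mouse left out the values ran from -0.71 to 0.022 for GFP_Barcode_52357, from -0.44 to 0.41 for GFP_Barcode_98919, from -1.83 to 0.40 for GFP_Barcode_44771 and from -1.18 to 0.49 for GFP_Barcode_39453. Without NSG mouse 4 all 4 were positive. The cause was not tested.

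Treating the mouse as a random effect gave 18 calls over both strains (2 of the 12), 1 in Ptprca mice, 27 in NSG mice (3 of the 12) and 4 for the interaction (1 of the 12). The single call in NSG mice, GFP_Barcode_9344, which is not among the 12, became 4 calls with the mouse number as a replicate block, 0 with centred log-ratios, 0 without a filter, 0 on NSG libraries alone (added after seeing the data), and 0 to 6 with each mouse left out (6 without NSG mouse 5). The block changed no other call. None of the 12 was called under any other alternative.

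Membership, 12 barcodes, was 24 at 5000 CPM, 7 at 20000 CPM, 7 on spleen alone and 6 with at least 2 mice of each strain; it was 16 with GFP_Barcode_52804 set aside and 10 to 12 with each mouse left out. Rescaling without GFP_Barcode_52804 moved the summed share to 47.5% of NSG bone marrow and 46.1% of NSG spleen. On spleen alone, 4 barcodes rather than 7 were above baseline in every mouse. Repeats of values under 1% differed most in NSG spleens. By summed reads the bone marrow of Ptprca mouse 3 was the shallowest library (2484519). The NSG spleens of mice 4, 5 and 6 came next, at 2640788, 3225751 and 3821789. The cause was not tested.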
